A study of Rattus norvegicus with 4 samples.

Results

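The genes described here are the drug-metabolising cytochromes P450 of families 1 to 3 in rat liver. Every row of the deposited table whose symbol is Cyp followed by 1, 2 or 3 and a letter was taken, and a row was kept as a member where at least 1 library had a value other than 0. Of 51 rows that fit, 39 were members, among 12874 genes with a value other than 0 and 31457 rows in all. The 39 rows carry 38 symbols, because Cyp2j4 has 2 rows with values. The 12 rows listed at 0 in all 4 libraries were Cyp2a3, Cyp2ab1, Cyp2ac1, Cyp2b1, Cyp2b12, Cyp2c79, Cyp2g1, Cyp2j16, Cyp2w1, Cyp3a71-ps and 1 further row each of Cyp2c6v1 and Cyp2c12.

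The livers came from Lewis rats of the allotype RT1L, and poly(A)-selected RNA of 4 livers was sequenced, 1 library per group. One liver was a naive control. The other 3 were taken after partial hepatectomy, with an intravenous injection of saline, of ASCs-siRNC cells or of ASCs-miR27b cells, and the groups are called naive, saline, siRNC and miR-27b below. The labels do not spell out ASCs or siRNC, and the sources used here give neither the time after surgery nor the sex and age of the rats. Because each group is 1 library, nothing below has a replicate check, no test between conditions can be made, and surgery cannot be told apart from the single animal that stands for each group.

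Cytochromes P450 are haem enzymes of the endoplasmic reticulum that insert an oxygen atom into drugs, pollutants, steroids and fatty acids, with electrons that mostly come from the reductase Por. In the liver, family 1 is induced mainly through the aryl hydrocarbon receptor AHR, the Cyp2b genes through the constitutive androstane receptor CAR, and the Cyp3a genes through the pregnane X receptor PXR. Several rat Cyp2c, Cyp2a and Cyp3a genes also differ between the sexes, a difference set by the pattern of growth hormone release.

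The authors deposited log2 values of normalized reads, each gene set relative to a baseline of its own near the middle of the 4 libraries. A difference of 1 between libraries is therefore a 2-fold difference, and the values of different genes cannot be compared as levels. The fold rule used below is a difference of at least 2-fold, and it is a rule of size and not a test. Size factors of the 4 libraries lay between 0.956 and 1.04. From the rounding of the stored numbers, 23 members were more probably than not at 256 or more normalized reads at their baseline, and 8 at 16 or more. Exact reads could be worked out for 4 members, and the baseline of the remaining 4 (Cyp1a1, Cyp2b15, Cyp2c24 and Cyp2s1) was placed under 16 reads. In all, 33 members passed the filter on low levels. Counting error alone puts an SD of 0.51 on a log2 difference where both libraries hold 16 reads, and of 0.13 where both hold 256, and the spread between animals is not known.

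All 8 hepatocyte genes examined, among them Alb, had values, with median differences from naive of -0.03 in saline, -0.12 in siRNC and 0.19 in miR-27b liver. By the rule 0 of the 8 stood apart from naive in saline and siRNC, and 1 (Fgb, 1.41 higher on the log2 scale) did in miR-27b liver. Umod of kidney, Sftpc and Scgb1a1 of lung and Omp of the olfactory lining, tissues with P450 genes of their own, were listed at 0 in all 4 libraries. In bulk liver, fewer cells of a type and less RNA per cell cannot be told apart.

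Differences between the livers were largest for 2 Cyp2b genes and 1 Cyp2c gene. The bases before their starts are shown here, with those of the near copy Cyp2b1. Such bases lie before the annotated start, so their likeness does not show how many reads the genes share. Cyp2b2 and Cyp2b15 belong to the Cyp2b subfamily, whose best-known members respond to phenobarbital, and Cyp2c24 lies in the Cyp2c cluster. The sequences are the 250 bases before the annotated start in RefSeq on build GRCr8, all on the plus strand. Capitals in the first pair mark the bases at which Cyp2b1 and Cyp2b2 differ where they align, and capitals in Cyp2c24 mark a TATAAA match.
Cyp2b1, chr1:90645869-90646118: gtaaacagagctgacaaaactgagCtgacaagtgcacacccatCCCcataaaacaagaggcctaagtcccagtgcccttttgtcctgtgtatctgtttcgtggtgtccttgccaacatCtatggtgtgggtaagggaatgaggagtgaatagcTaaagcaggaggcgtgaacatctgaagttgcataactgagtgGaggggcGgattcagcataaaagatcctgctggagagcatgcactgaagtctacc
Cyp2b2, chr1:90722031-90722280: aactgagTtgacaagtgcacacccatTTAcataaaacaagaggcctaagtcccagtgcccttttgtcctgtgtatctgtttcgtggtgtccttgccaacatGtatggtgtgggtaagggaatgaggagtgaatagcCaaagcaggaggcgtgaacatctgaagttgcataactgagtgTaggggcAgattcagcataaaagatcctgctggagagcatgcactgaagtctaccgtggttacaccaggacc
Cyp2b15, chr1:91221615-91221864: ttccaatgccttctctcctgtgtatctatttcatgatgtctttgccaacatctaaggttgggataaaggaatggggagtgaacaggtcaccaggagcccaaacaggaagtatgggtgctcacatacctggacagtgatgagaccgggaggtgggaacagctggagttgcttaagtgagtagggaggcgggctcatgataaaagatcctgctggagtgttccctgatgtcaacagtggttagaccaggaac
Cyp2c24, chr1:246286091-246286340: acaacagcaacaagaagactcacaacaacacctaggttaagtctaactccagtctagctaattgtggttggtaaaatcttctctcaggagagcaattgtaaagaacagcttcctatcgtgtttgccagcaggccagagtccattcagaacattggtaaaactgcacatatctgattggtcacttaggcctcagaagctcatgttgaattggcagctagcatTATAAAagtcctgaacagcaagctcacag
Over 233 aligned bases, 225 (96.6%) were the same in Cyp2b1 and Cyp2b2. Cyp2b1 (gene ID 24300) was nevertheless listed at 0 in all 4 libraries. Cyp2b2 (gene ID 361523) was among the members more probably than not at 256 or more reads. The sources used here do not say how the authors' counting treated reads shared by near copies, so reads of the 2 genes cannot be told apart. The Cyp2b15 window matched that of Cyp2b2 at 79.3% of 198 aligned bases.

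One of the runs of differing bases in that pair falls in a motif. The letters TTANGTAA, bound by clock-linked PAR bZIP factors such as Dbp and read on both strands, occur in the Cyp2b2 window and not in the Cyp2b1 window. They occurred in 1 of 34 member genes with a promoter window (2.94%) and in 2.19% of 27457 genes. The AHR core GCGTG was in 5 member windows (14.7%) and in 28.4% of all, the STAT letters TTCNNNGAA in 3 (8.82%) and in 8.19%, and TATAAA in 13 (38.2%) and in 14.1%. The 13 genes with TATAAA include Cyp2c24, Cyp2c7, Cyp2c11, Cyp2e1 and Cyp3a62. Such a match describes the letters in the window only, the matches in the printed windows overlap in 0 cases, and 4 members (Cyp1a1, Cyp2a2, Cyp2c6v1 and Cyp3a85-ps) had no window.

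The cells given to the fourth rat carry the name of miR-27b, whose mature strands are shown with their seeds, bases 2 to 8, in capitals.
rno-miR-27b-3p: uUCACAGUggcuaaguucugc
rno-miR-27b-5p: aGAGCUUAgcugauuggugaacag
The RNA measured is poly(A)-selected, so the mature miRNA itself is not measured, and the labels do not say which strand the cells carried.

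Between the saline and the naive liver, which differ by the surgery and the saline, more members stood higher than lower by the fold rule. Of the 39, 9 were at least 2-fold higher in saline and 1 was lower. Among all genes with a value, 8.48% were at least 2-fold higher and 6.6% lower, against 23.1% and 2.56% of the members. The 9 were Cyp1a1, Cyp2b15, Cyp2b2, Cyp2c24, Cyp2c6v1, Cyp2c7, Cyp2j3, Cyp3a2 and Cyp3a85-ps, and the 1 was Cyp2f4. Among the 33 members that passed the filter on low levels, 6 (18.2%) were higher and 1 (3.03%) lower, with 5.11% and 3.35% of all genes that passed. The median member difference was 0.08, with 22 above 0 and 16 below, so the family as a whole did not stand to one side. The siRNC liver had 5 members higher than naive (Cyp1a1, Cyp1b1, Cyp2c24, Cyp2c7 and Cyp2j10, 12.8%) and 2 lower (Cyp2b15 and Cyp2f4, 5.13%), where 8.89% and 6.19% of all genes were so. The miR-27b liver had 5 higher (Cyp2b15, Cyp2c24, Cyp2c7, Cyp2r1 and Cyp3a85-ps, 12.8%) and 4 lower (Cyp2c11, Cyp2f4, Cyp3a9 and row 1 of Cyp2j4, 10.3%), with 12.7% and 6.13% of all genes, so its share of higher members lies near the background. Past the level filter, siRNC had 2 members higher (6.06%) and 1 lower (3.03%), beside 5.24% and 3.13% of all genes that passed. The miR-27b liver then had 3 higher (9.09%) and 4 lower (12.1%), beside 7.35% and 3.4%.

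**Figure D1:**
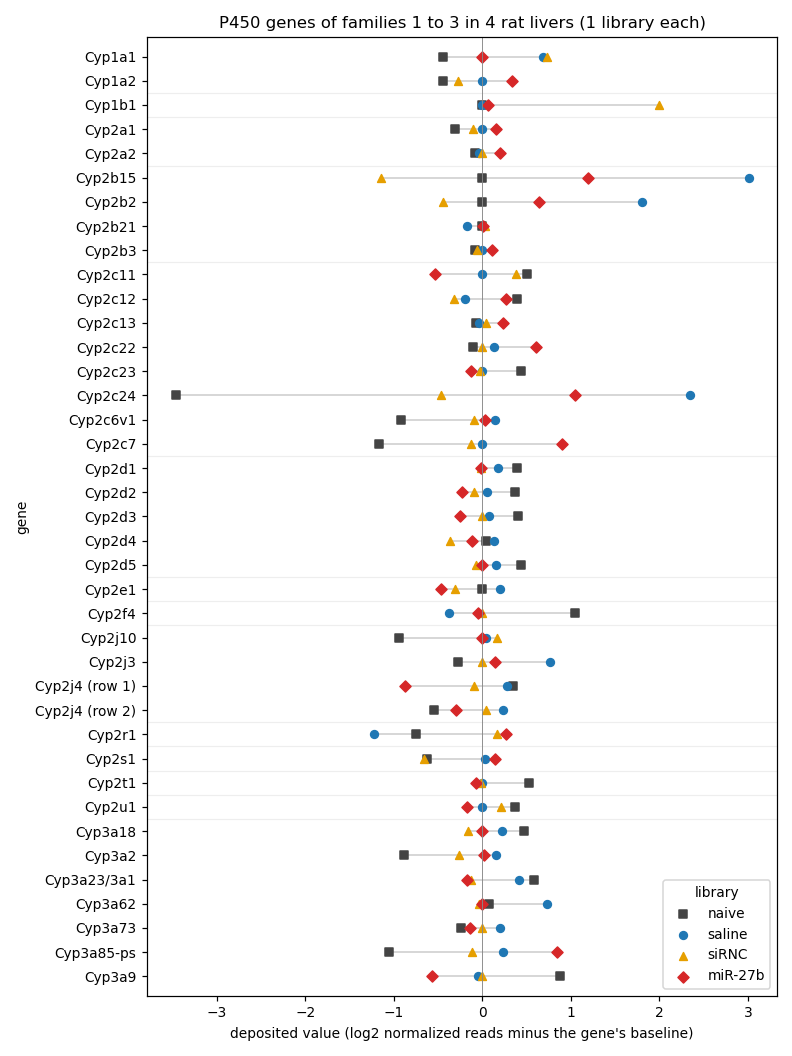
Deposited values of the 39 members (vertical axis) in the 4 libraries, on a log2 scale relative to each gene's own baseline (horizontal axis), with 1 point per library and a grey line from the lowest to the highest. Cyp2c24 and Cyp2b15 span 5.81 and 4.15 on this scale, and 8 members span less than 0.5.

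Cyp2c24 (gene ID 499353) had the widest range of all members. Its deposited value was -3.46 in naive, 2.35 in saline, -0.47 in siRNC and 1.05 in miR-27b liver. The naive library stood far below the other 3, and saline stood highest. The saline liver was 56.1-fold above naive, the siRNC liver 7.94-fold and the miR-27b liver 22.8-fold. Because no stored value lies below 1 normalized read, the saline level was at least 56.1 normalized reads, and the naive level may sit at that floor. Its baseline was in the lowest level class, so the naive end of these folds rests on few reads. With a pseudocount of 5 normalized reads, and its levels set at their lower bounds, the log2 differences from naive shrink from 5.81, 2.99 and 4.51 to 3.35, 1.11 and 2.21 in saline, siRNC and miR-27b liver.

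Cyp2b15 (gene ID 685222) showed values of 0.00 in naive, 3.01 in saline, -1.15 in siRNC and 1.19 in miR-27b liver. Saline was again highest, but here siRNC and not naive was lowest. The saline liver was 8.03-fold above naive, and the siRNC library lay -4.15 from saline on the log2 scale. At least 17.8 normalized reads in saline follow from the floor. With the same pseudocount the difference of saline from naive shrinks from 3.01 to 1.66, and that of siRNC from saline from -4.15 to -1.93.

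Cyp2b2, a phenobarbital-inducible enzyme that oxidises many drugs, was the member of the highest level class with the same order of libraries as Cyp2b15. Its values were 0.00 in naive, 1.80 in saline, -0.44 in siRNC and 0.64 in miR-27b liver. The saline liver was 3.48-fold above naive, and the siRNC liver was lower than saline by a log2 difference of -2.24. Its class of 256 or more reads has a probability of 0.69. At that level counting error is small beside these differences, but each library is still 1 animal. Reads of Cyp2b2 and Cyp2b1 cannot be told apart. The other Cyp2b members were flat: Cyp2b3 ranged over 0.19 and Cyp2b21 over 0.21, the latter on 19.7, 18.6, 20.7 and 19.3 reads in naive, saline, siRNC and miR-27b liver.

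**Figure D2:**
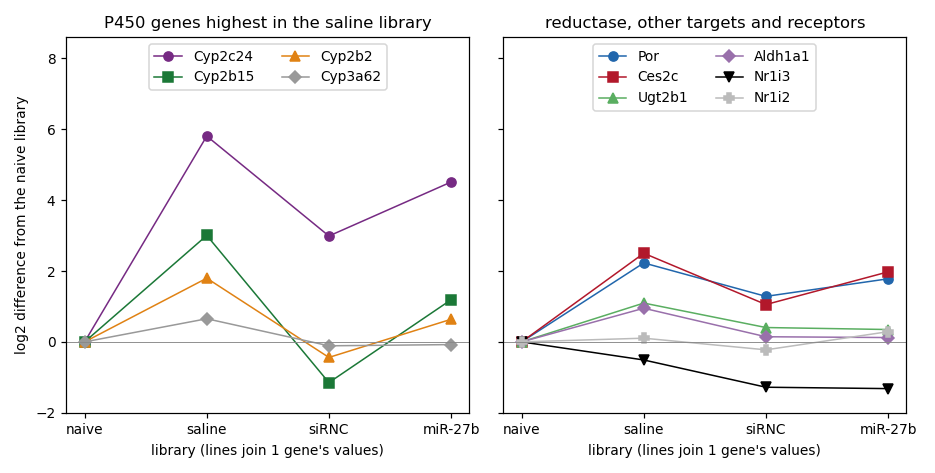
Log2 difference from the naive library (vertical axis) in each library (horizontal axis) for 4 members highest in saline (left) and for Por, 3 other xenobiotic-response genes and the receptor genes Nr1i3 and Nr1i2 (right), chosen after their values were seen. Saline is the highest library for all 4 members and for Por, Ces2c, Ugt2b1 and Aldh1a1, and Nr1i3 lies below 0 in all 3 hepatectomised livers.

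Cyp1a1, which oxidises polycyclic hydrocarbons and is the classic AHR target, read -0.45 in naive, 0.69 in saline, 0.73 in siRNC and 0.00 in miR-27b liver, on fewer than 16 reads at its baseline. Saline was 2.19-fold and siRNC 2.27-fold above naive, with miR-27b between them and naive. Cyp1a2, the constitutive liver enzyme for caffeine and arylamines, read -0.44, 0.00, -0.27 and 0.34 in the same order. Naive was the lowest library for both, and no Cyp1a2 difference reached 2-fold. Cyp1b1, expressed mainly outside the liver, had 4 reads in siRNC and 1 in miR-27b liver and sat at the floor in naive and saline, too few reads to place a difference.

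The Cyp2a members, testosterone hydroxylases, were close in all livers: Cyp2a1 ranged over 0.46 and Cyp2a2 over 0.28, and naive was the lowest library for both.

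Among the 8 Cyp2c members the differences ran both ways, and genes known for sex bias lay on both sides of naive. Cyp2c7, more abundant in females and active on retinoids, read -1.17 in naive, 0.00 in saline, -0.13 in siRNC and 0.90 in miR-27b liver. It was higher than naive in every hepatectomised liver, by 2.25-, 2.05- and 4.20-fold. Cyp2c11, the main male-specific testosterone hydroxylase, read 0.51, 0.00, 0.38 and -0.53, so naive was highest and miR-27b lowest, with a log2 difference of -1.04 between them. The difference of saline from naive in Cyp2c11 was -0.51, short of the rule. Cyp2c12, the female-specific steroid sulphate hydroxylase, read 0.39, -0.19, -0.32 and 0.27, which set siRNC and saline below the other libraries. Cyp2c13, a male-specific gene, ranged over 0.31.

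Cyp2c6v1, a phenobarbital-responsive drug oxidase, read -0.92 in naive, 0.14 in saline, -0.09 in siRNC and 0.03 in miR-27b liver. Naive alone stood apart, with saline 2.09-fold above it. Cyp2c22, linked to retinoic acid oxidation, was highest in miR-27b liver at 0.71 above naive, and Cyp2c23, an arachidonic acid epoxygenase, was highest in naive with the other 3 between -0.44 and -0.56 from it.

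**Figure D3:**
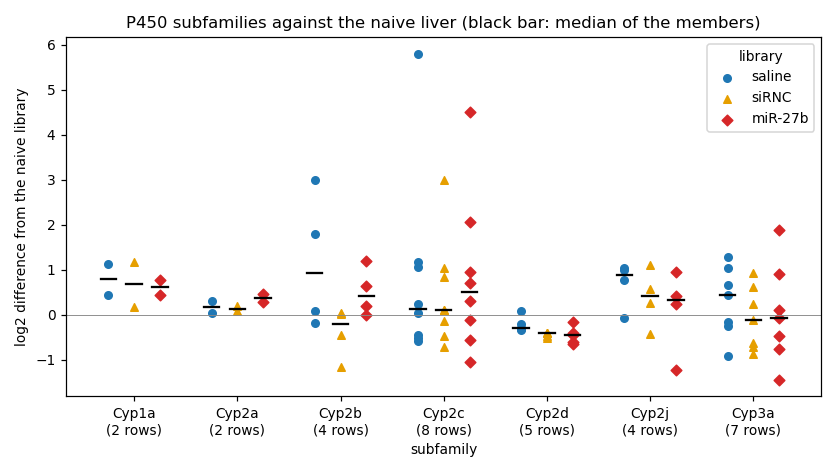
Log2 difference of each member from the naive library (vertical axis) in each of the 3 hepatectomised livers, by subfamily (horizontal axis), with 1 point per member row and a black bar at the median. The Cyp2d points in siRNC and miR-27b lie below 0 in 5 of 5 rows, and the Cyp2c and Cyp3a points lie on both sides.

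The Cyp2d subfamily, whose human relative metabolises many antidepressants and opioids, differed little from gene to gene. All 5 members lay below naive in siRNC (-0.51 to -0.40) and in miR-27b liver (-0.65 to -0.16), and all 5 also lay below saline in both. In saline, 4 of the 5 lay below naive and Cyp2d4 lay 0.09 above. None reached 2-fold in any comparison. The medians against naive were -0.29 in saline, -0.41 in siRNC and -0.44 in miR-27b liver, beside all-gene medians of 0 for the first pair and of 0.0043 for the third. Near copies may share reads here too, but how alike the transcripts are was not examined. Before the starts, Cyp2d3 and Cyp2d5 matched at 97.2% of 211 aligned bases and Cyp2d1 and Cyp2d5 at 93.5% of 215. Those bases lie before the annotated start and do not show how many reads are shared.

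Cyp2e1, which oxidises ethanol and paracetamol around the central vein, read 0.00 in naive, 0.20 in saline, -0.31 in siRNC and -0.47 in miR-27b liver. Both livers given cells were lower than naive and saline, but no pair was 2-fold apart, and the lowest was -0.67 from saline. Of 9 other pericentral genes, 0 were higher and 2 lower than naive by the rule in saline, 1 higher and 2 lower in siRNC, and 0 higher and 3 lower in miR-27b liver. The 1 higher was Lgr5, on 4 reads in siRNC and at the floor in naive. The median difference of those 9 from naive was 0.05 in saline, -0.49 in siRNC and -0.81 in miR-27b liver. Of 9 periportal genes, 1 was higher and 1 lower in saline, 1 and 0 in siRNC, and 1 and 1 in miR-27b liver. Their medians were 0.25, 0.02 and 0.24. Among all genes with a value, 8.48%, 8.89% and 12.7% were higher than naive in these livers, and 6.6%, 6.19% and 6.13% lower. Whether zonation has a part in the Cyp2e1 values was not tested.

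Cyp2f4, a naphthalene oxidase best known from lung, was the member at least 2-fold below naive in all 3 hepatectomised livers. It read 1.05 in naive, -0.38 in saline, 0.00 in siRNC and -0.05 in miR-27b liver. The log2 differences from naive were -1.43, -1.05 and -1.10, at a level class of 16 or more reads. By the rule, 2 members were higher than naive in all 3 livers (Cyp2c24 and Cyp2c7) and 1 was lower, or 5.13% and 2.56%, beside 4.4% and 2.03% of all genes, so these counts lie near the background.

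The Cyp2j genes make epoxides from arachidonic acid. Cyp2j3 read -0.27 in naive, 0.76 in saline, 0.00 in siRNC and 0.14 in miR-27b liver, with saline alone 2.05-fold above naive. Cyp2j10 had 13, 27.5, 29 and 24.5 reads in naive, saline, siRNC and miR-27b liver, so naive stood below the other 3. Its log2 difference between saline and naive was 0.99, with a 95% exact binomial (Clopper-Pearson) interval from 0.02 to 2.09 that covers counting error only. Reads were rounded to whole numbers for the intervals, and a lower end this close to 0 depends on that rounding. Between siRNC and naive the difference was 1.12, with an interval from 0.13 to 2.18 of the same kind. Between miR-27b and naive it was 0.95, and that interval, from -0.12 to 2.01, includes 0. Cyp2j4 appeared in 2 rows that went different ways. Row 1 read 0.34, 0.28, -0.09 and -0.88 in naive, saline, siRNC and miR-27b liver, lowest in miR-27b, while row 2 read -0.54, 0.23, 0.04 and -0.30, lowest in naive. Both rows carry the same gene ID, so no single direction can be given for Cyp2j4.

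Cyp2r1, the vitamin D 25-hydroxylase, was lowest in saline. It read -0.75 in naive, -1.22 in saline, 0.16 in siRNC and 0.27 in miR-27b liver. Both livers given cells stood above both that were not, by 2.61- and 2.81-fold over saline and by 1.88- and 2.02-fold over naive. The level class of Cyp2r1 was 16 or more reads. With the pseudocount of 5, its log2 difference of siRNC from saline shrinks from 1.38 to 0.95. That of miR-27b from naive shrinks from 1.02 to 0.74, so both fall short of the rule. The difference of miR-27b from saline shrinks from 1.49 to 1.03 and stays past it. The remaining single-gene subfamilies showed less: Cyp2t1 was highest in naive with a range of 0.59, Cyp2s1 ranged over 0.81 on few reads, and Cyp2u1, a fatty acid hydroxylase, had 9.90, 8.17, 9.16 and 6.69 reads in the 4 livers.

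The Cyp3a subfamily oxidises the widest span of drugs and steroids, and its 7 rows split. Cyp3a2, a male-predominant testosterone 6-beta-hydroxylase, read -0.88 in naive, 0.15 in saline, -0.27 in siRNC and 0.02 in miR-27b liver. It was lowest in naive, 2.05-fold below saline. Cyp3a9, more abundant in females, ran the other way with 0.88, -0.04, 0.00 and -0.57. Naive was highest for Cyp3a9, with saline at -0.92 and miR-27b liver at -1.45 from it. Cyp3a18, a male-predominant enzyme, read 0.47, 0.22, -0.16 and 0.00, also highest in naive but within 2-fold.

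Cyp3a23/3a1, the form induced by dexamethasone through PXR, was likewise highest in naive, with differences of -0.17 in saline, -0.72 in siRNC and -0.75 in miR-27b liver. Cyp3a85-ps, annotated as a pseudogene by its symbol, read -1.05, 0.23, -0.12 and 0.84 in naive, saline, siRNC and miR-27b liver, up to 3.70-fold above naive. Cyp3a62 was highest in saline at 0.65 above naive, with the other 3 livers within 0.11 of one another. Cyp3a73 ranged over 0.45. The Cyp3a genes are close copies that may share reads.

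Across all members, naive was an extreme more often than not. It was the lowest library for 16 members (41.0%) and the highest for 14 (35.9%), while 27.8% and 30.6% of all genes had naive lowest and highest. Saline was the highest library for 11 members (28.2%), with 20.5% of all genes, and the lowest for 3 (7.69%), with 20.1%. The siRNC library was highest for 4 (10.3%), and for 2701 of the 12874 genes.

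**Figure D4:**
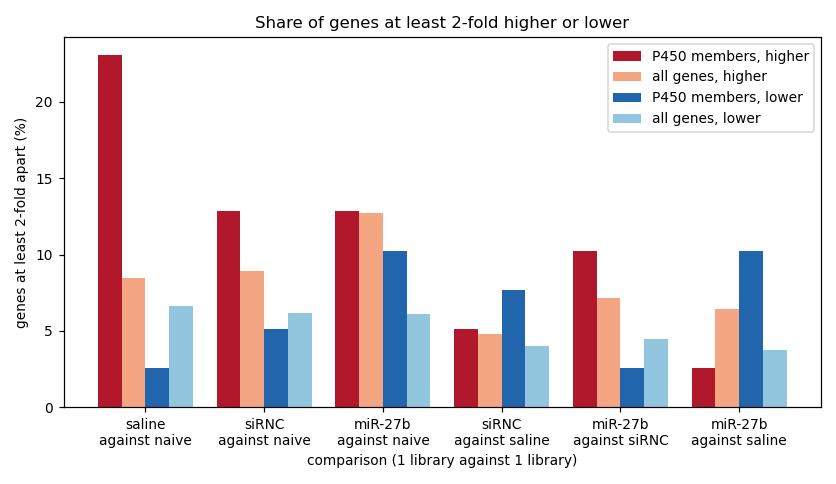
Share of genes at least 2-fold higher or lower (vertical axis, percent) in 6 comparisons of 1 library with another (horizontal axis), for the 39 members and for all 12874 genes with a value. The tallest member bar is 23.1% higher in saline against naive, beside 8.48% of all genes.

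The siRNC and saline livers differ, by their labels, in the cells that were given. By the fold rule 2 members were higher in siRNC (Cyp1b1 and Cyp2r1, 5.13%) and 3 lower (Cyp2b15, Cyp2b2 and Cyp2c24, 7.69%), beside 4.77% and 4.02% of all genes. Among the 33 members past the level filter the counts were 1 (3.03%) and 1 (3.03%), beside 1.83% and 1.48% of all genes that passed. Counting differences of any size, 28 of the 39 members lay below saline and 11 above, with a median of -0.14 where all genes had 0. By subfamily, 3 of 4 Cyp2b, 6 of 8 Cyp2c, 5 of 5 Cyp2d and 6 of 7 Cyp3a rows lay below saline. The share of all genes below saline was not counted, near copies may share reads, and every row uses the same saline library.

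Between the miR-27b and siRNC livers, which differ in the label of the cells, 4 members were higher (Cyp2b15, Cyp2b2, Cyp2c24 and Cyp2c7) and 1 lower (Cyp1b1), that is 10.3% and 2.56%, beside 7.14% and 4.45% of all genes. Past the level filter, 2 members (6.06%) were higher and 0 lower, beside 2.58% and 1.91% of all genes that passed. Cyp2b2 stood 2.11-fold and Cyp2c7 2.05-fold above siRNC, both just past the rule. Cyp2c11 lay -0.91 from siRNC, the lowest of the members in the level class of 256 or more reads. No p-value exists behind these counts, since each is 1 library set against another.

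Against saline, the miR-27b liver had 1 member higher (Cyp2r1, 2.56%) and 4 lower (Cyp2b15, Cyp2c24, Cyp2b2 and row 1 of Cyp2j4, 10.3%), beside 6.43% and 3.75% of all genes. Past the level filter the counts were 1 (3.03%) and 2 (6.06%), beside 1.95% and 1.51% of all genes that passed. The median was -0.15, where all genes had 0.01, with 25 members below saline and 14 above. Here too the share of all genes below saline was not counted. All 6 comparisons share libraries with others, so their counts are not independent of each other.

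Electron supply and haem were then read from 18 genes. Por, the reductase that every microsomal P450 depends on, read -1.28 in naive, 0.94 in saline, 0.00 in siRNC and 0.50 in miR-27b liver. All 3 hepatectomised livers were above naive, by log2 differences of 2.23, 1.28 and 1.78, with saline highest. Hmox1, which breaks down haem, lay 2.17, 2.19 and 3.04 above naive. Alas1, the first enzyme of haem synthesis, lay -0.73, -0.34 and -0.33 from naive. Por and Hmox1 were the 2 genes of the 18 past the rule against naive in each liver, with 0 lower, and the median of the list was -0.22 in saline.

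The regulators of these genes were read from 24 rows of receptors and liver factors. By the rule 2 were higher and 2 lower than naive in saline, with a median of -0.22. In siRNC liver 3 were higher and 1 lower, and in miR-27b liver 3 and 3, with a median of -0.16 in each. Nr1i3, which encodes CAR, was below naive by log2 differences of -0.51 in saline, -1.28 in siRNC and -1.32 in miR-27b liver. Nr1i2, which encodes PXR, lay 0.10, -0.22 and 0.29 from naive. Ahr lay -0.12, -0.77 and 0.42 from naive. Hnf4a, a factor that keeps hepatocyte genes on, lay -0.43, -0.76 and -0.71 from naive, while Onecut1 lay 2.68 and 3.62 above it in saline and siRNC and -0.15 from it in miR-27b liver. Ppargc1a, a coactivator of the fasting response, lay 1.83, 1.10 and 2.96 above, and Nfe2l2 lay -1.20, -0.69 and -1.12 from naive. Rows of Nr3c1 lay -0.49 and -1.39 from naive in saline. In miR-27b liver Foxa2 lay -1.15 and Nr0b2 1.03 from naive. Nr2f1 lay 1.54 and 2.03 above naive in siRNC and miR-27b liver, on fewer than 16 reads at its baseline.

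Among 20 rows of other AHR, CAR and PXR targets with values, 2 were higher than naive in saline and 1 lower, with a median of -0.01, so this list as a whole stood near all genes. Ces2c, a carboxylesterase, lay 2.50, 1.05 and 1.98 above naive in saline, siRNC and miR-27b liver, with saline highest as for Cyp2b2 and Por. Ugt2b1, a glucuronosyltransferase, lay 1.10, 0.41 and 0.35 above. Gsta2 lay -2.40, -2.52 and -3.17 from naive on few reads. Sult2a1, a steroid sulfotransferase, went differently, at -0.32, 1.84 and 0.98. Ephx1, the microsomal epoxide hydrolase, lay -0.14, -0.79 and -0.88 from naive.

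Genes that respond to growth hormone or the clock were read next. Bcl6, a repressor in the growth hormone response, lay -4.67, -2.70 and -2.02 from naive. Cish, an induced feedback inhibitor, lay 3.59, 4.51 and 1.77 above, on fewer than 16 reads at its baseline. Socs2 lay 1.36, 1.19 and -0.38 from naive. By the rule, 3 of the 10 growth hormone rows were higher than naive in saline, 3 in siRNC and 2 in miR-27b liver. In the same order 1, 2 and 2 were lower, and the medians were -0.38, 0.15 and -0.14. Also past the rule were Cux2, higher in each hepatectomised liver but on 2 reads in naive, Stat5b (-1.01 in siRNC) and Stat5a (-1.09 in miR-27b liver). Igf1 lay -0.52, 0.09 and -0.20 and Igfals -0.76, 0.21 and -0.74 from naive, both in the level class of 256 or more reads. The clock output factor Dbp was 5.13, 6.72 and 3.54 above naive, highest in siRNC. Tef, another PAR bZIP factor, lay 0.74, 1.42 and 0.49 above. Nfil3, read with them, lay 0.21, -1.30 and 0.40 from naive, on 57.5 reads in siRNC and 137.9 in naive. The part of these factors in the P450 values was not tested. The labels give no time of day for the collection.

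Inflammation is known to lower many hepatic P450 genes, so acute phase genes and markers of other cell types were read in the same libraries. Of 20 acute phase genes with values, 9 were at least 2-fold above naive in saline, 6 in siRNC and 18 in miR-27b liver. Their medians were 0.97, 0.89 and 1.54, with 0 lower in each. Among all genes with a value, 8.48%, 8.89% and 12.7% were at least 2-fold higher in these livers. Of 12 macrophage genes, 11, 8 and 11 were higher, with medians of 1.30, 1.14 and 1.52. Of 5 erythroid genes, 4, 5 and 5 were higher. Of 8 stellate and fibroblast genes, 4, 7 and 4 were higher than naive, with medians of 0.95, 2.03 and 1.39, and 5 were higher in siRNC than in saline. Of 7 endothelial genes, 3, 2 and 4 were higher than naive. Of 5 neutrophil genes, Mpo, Camp and Ngp were listed at 0 in all 4 libraries. S100a8 and S100a9 were higher than naive in each liver, on fewer than 16 reads at their baseline. Their part in the P450 differences was not tested. The 26 P450 genes of families 4 and above had a median of -0.01 in saline against naive, with 2 higher and 1 lower.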

How the data were processed

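The data were 1 deposited table of 4 libraries from rat liver. DESeq (version not stated) and the genome build rn5 are listed in the submitters' processing notes, and the sources used here name neither an aligner nor a read counter. The authors deposited log2 values of normalized reads, floored at 1 normalized read and set against 1 baseline per gene. Of the 12874 genes with a value, 77.3% have a middle library at exactly 0. Log2 folds are differences of these values with no pseudocount, and the call is a difference of 1 or more (2-fold). Linear values had been planned for, so the unit differed from the plan.

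Reads were recovered for 3060 genes with a posterior of at least 0.9, in whole reads, in half-read steps or in steps of 1 base of a 101-base read. The others received a level class from how finely the stored numbers are rounded. The level filter (9253 genes) asked for a mean of 10 recovered reads or the class of 16 or more. Total depth cannot be read from such values. The recovery was tested on simulated data. Named with 4 values were members with a range of 1 or more past the filter and 9 fixed genes, and other members are given mostly by ranges. The members, gene lists and rules were chosen with earlier results of these data known. Python 3.11.15, numpy 2.4.6, pandas 2.3.3, Biopython 1.88 and matplotlib 3.10.9 were used. Promoters and miRNAs are from RefSeq (GRCr8), and 34 of 38 member genes matched. The alternatives were the level filter, a pseudocount of 5 reads and recentring on the median of all genes.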

Additional observations from a re-analysis of the deposited data

How the results depend on the processing

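The medians of the 6 comparisons moved by less than the counting SD of 0.13 under the 3 alternatives. Recentring left the counts within 1.5 times. Of single members, 1 changed sign on recentring, Cyp2d1 in miR-27b against siRNC, from 0.0026 to -0.0118. The low-level members decide several counts. For siRNC against saline, the 2 members higher became 1 with the level filter and 0 with the pseudocount of 5, and the 3 lower became 1 with the filter. For miR-27b against siRNC, the 4 higher became 2 with the filter, and the 1 lower became 0 with the filter and 0 with the pseudocount. For miR-27b against saline, the 4 lower became 2 with the filter. The alternatives for siRNC and miR-27b against naive were chosen after seeing the data. For siRNC against naive, the 5 higher became 2 with the filter and 2 with the pseudocount, and the 2 lower became 1 and 0. For miR-27b against naive, the 5 higher became 3 with each, and the 4 lower became 2 with the pseudocount. Against naive in all 3 hepatectomised livers, the 2 higher became 1 with the filter and the 1 lower became 0 with the pseudocount. The filter tests fewer genes, and the pseudocount shrinks low ones by its construction. No replicate could be left out and no paired analysis was possible because each group has 1 library. Differences of members under 16 reads are limited by counting error, and all differences by the single animal per group.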
